A study of Homo sapiens with 12 samples.

Results

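The genes described here encode cytokines of the IL-6 and IL-12 families, taken as every gene among IL6, IL12A, IL12B, IL23A, EBI3, LIF and OSM that appeared in either of the 2 tables of LPS-responsive genes deposited by the authors. Of the 7 genes, 5 were listed (IL6, IL12B, IL23A, EBI3 and LIF) and all 5 stood in both tables, out of 3281 genes listed in all. IL12A and OSM were in neither table and were not analysed here.

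The cells were THP-1, a line from a human monocytic leukaemia in which the phorbol ester PMA induces macrophage features. The S80A cells carried the S80A form of NFKB1, with a serine of its NF-κB product p50 changed to alanine, and the WT cells are labelled wild type. All 4 groups received 25 ng/ml PMA for 72 hr and then rested for 4 days. The 2 groups at 3 hr, S80A and WT, then had 10 ng/ml lipopolysaccharide (LPS), an endotoxin of bacteria that TLR4 recognises, for 3 hr, and the 2 groups at 0 hr, S80A and WT, had none. Each group had 3 libraries of poly(A) RNA. The study asked what phosphorylation of p50 at this serine does to LPS-induced transcription. The labels do not say how the S80A cells were made or whether they are 1 clone, so the S80A change and other differences between the cell populations cannot be told apart.

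IL-6 family cytokines such as IL-6 and LIF signal through receptors that contain the shared chain gp130, encoded by IL6ST. IL-12 family cytokines are pairs of different chains, and the chains are shared: p40 (IL12B) joins p35 (IL12A) in IL-12 and p19 (IL23A) in IL-23, while EBI3 joins p28 (IL27) in IL-27. Both families act through JAK kinases and STAT transcription factors. In macrophages several of these genes are classical targets of NF-κB downstream of TLR4, and their products direct T helper cell differentiation and the acute-phase response.

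Values are scaled reads, the reads on a gene over the size factor of its library. Reads on the listed genes ranged from 1924562 to 5789918 per library, which leaves out all other genes and is not the libraries' depth. Nothing in the labels says that the replicates were separate cultures, so p-values cover the spread among these samples only, and that spread may be technical. Over the 3281 genes the median absolute difference from the WT mean was 0.78 log2 in S80A replicate 1 at 3 hr, against 0.85 and 0.88 log2 in S80A replicates 2 and 3. At 0 hr the same measure was 0.51 log2 in S80A replicate 1, against 0.63 and 0.72 log2 in the other S80A libraries. S80A replicate 1 therefore lay nearest to WT at both times, and results are given without it where that matters. NFKB1 itself did not pass the test between genotypes at 3 hr (difference -0.02 ± 0.21 log2, SE, limma adjusted p = 0.936), and the S80A change need not show in its read count. Of 11 macrophage and monocyte markers CD14 and CD163 were listed, at 1040.5 to 1809 and 613 to 992 scaled reads in S80A cells at 3 hr and at 709 to 1088 and 873 to 1381 in WT cells at 3 hr. Of 14 markers of T, NK, B, fibroblast and endothelial cells 1 was listed, CD79B, at 8.39 to 12.7 scaled reads in S80A cells and 4.70 to 13.9 in WT cells at 3 hr. The other markers were not analysed here.

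The promoters are shown because p50 is a DNA-binding subunit of NF-κB, and because 4 of the 5 listed genes (IL23A, IL12B, EBI3 and IL6) matched an entry by symbol. Each line holds the 250 bases upstream of the RefSeq start on GRCh38.p14, in the gene's own direction. The windows are chr12:56338634-56338883 on the plus strand (IL23A), chr5:159330488-159330737 on the minus strand (IL12B), chr19:4229273-4229522 on the plus strand (EBI3) and chr7:22726950-22727199 on the plus strand (IL6). Capitals mark matches, on either strand, to the NF-κB consensus (κB), to the AP-1 motif TGANTCA, to the C/EBP motif TTNNGNAA or to the STAT motif TTCNNNGAA.
IL23A: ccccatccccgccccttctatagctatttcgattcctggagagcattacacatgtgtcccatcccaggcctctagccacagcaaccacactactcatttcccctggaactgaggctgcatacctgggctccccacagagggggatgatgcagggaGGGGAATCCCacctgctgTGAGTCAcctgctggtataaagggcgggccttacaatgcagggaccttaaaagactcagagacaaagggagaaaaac
IL12B: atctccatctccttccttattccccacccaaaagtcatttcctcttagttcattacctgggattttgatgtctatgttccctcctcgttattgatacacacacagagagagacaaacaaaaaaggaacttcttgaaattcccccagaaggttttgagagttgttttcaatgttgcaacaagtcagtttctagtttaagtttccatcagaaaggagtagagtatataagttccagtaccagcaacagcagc
EBI3: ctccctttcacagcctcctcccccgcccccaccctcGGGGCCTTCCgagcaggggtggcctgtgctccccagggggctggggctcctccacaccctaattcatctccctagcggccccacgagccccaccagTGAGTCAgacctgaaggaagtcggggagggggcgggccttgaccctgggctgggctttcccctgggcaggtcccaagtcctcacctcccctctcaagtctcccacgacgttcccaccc
IL6: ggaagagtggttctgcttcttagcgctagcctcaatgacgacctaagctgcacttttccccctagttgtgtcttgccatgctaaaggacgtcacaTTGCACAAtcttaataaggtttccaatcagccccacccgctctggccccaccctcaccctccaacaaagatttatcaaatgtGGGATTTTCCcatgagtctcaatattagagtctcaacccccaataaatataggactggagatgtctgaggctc
IL23A held a κB match at 95 to 86 bases upstream and an AP-1 match at 77 to 71 bases upstream. EBI3 held the same pair of motifs farther out, with κB at 214 to 205 and AP-1 at 118 to 112 bases upstream. IL6 held κB at 73 to 64 and C/EBP at 155 to 148 bases upstream. IL12B held no match to any of the 4 motifs in this window, and no window held a STAT match. Among 35116 promoters of the same length, 9.96% held the κB consensus, 6.57% TGANTCA, 33.2% TTNNGNAA and 6.57% TTCNNNGAA. No matches overlapped each other, and a match is a description of letters, not a site.

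**Figure D1:**
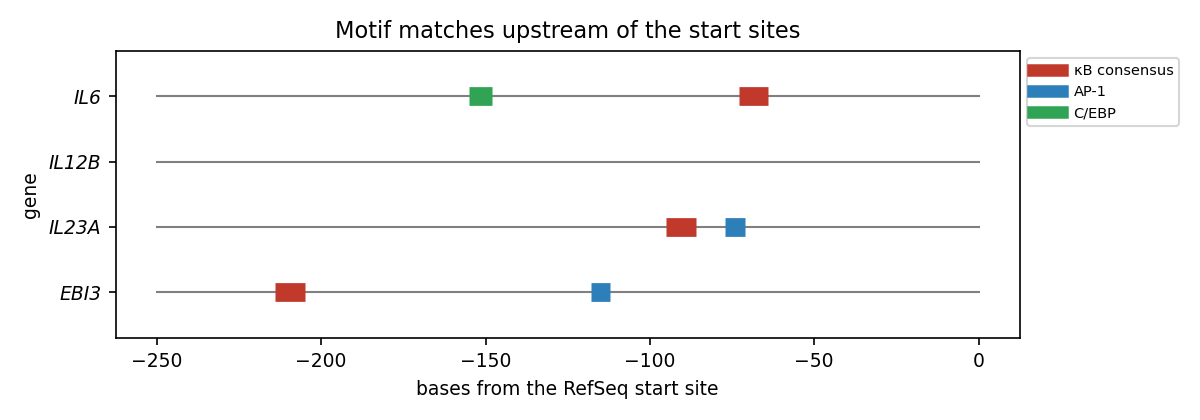
Position of motif matches in the 250 bases upstream of the RefSeq start of IL23A, IL12B, EBI3 and IL6, with the distance from the start in bases on the horizontal axis and 1 row per gene. IL23A, EBI3 and IL6 each hold a κB match, nearest the start in IL6 at 73 to 64 bases, and IL12B holds no match to any of the 4 motifs.

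After 3 hr of LPS, 4 of the 5 cytokine genes differed between genotypes, and not all in the same direction. IL23A, IL12B and IL6 were lower in S80A cells, LIF was higher, and these 4 passed the limma test at an adjusted p under 0.05, against 47.0% of all 3281 listed genes. In the direction of lower in S80A the count was 3 of 5, against 17.7% of all listed genes, and in the direction of higher it was 1 of 5, against 29.2%. EBI3 was higher in every S80A library than in any WT library and missed the threshold. With the replicate number as a block LIF missed the threshold (limma adjusted p = 0.0517) and EBI3 passed (0.0366). The S80A and WT libraries did not overlap for any of the 5 genes, which held for 59.0% of all listed genes. Of the 5, 3 lay lower in S80A without overlap, against 23.3% of all listed genes, and 2 lay higher, against 35.7%. The median difference of the 5 genes was -2.52 log2, beside 0.19 log2 over all listed genes. Centring each library on its median removed 0.22 log2 from the differences at 3 hr and 0.17 log2 from those at 0 hr. No direction changed among the 5 genes at 3 hr or among the 3 genes tested at 0 hr. In bulk RNA, fewer cells that express a gene and less of its RNA per cell cannot be told apart.

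IL23A encodes p19, the chain that makes IL-23 distinct (GRCh38 chr12:56334174-56340410, plus strand). At 3 hr it had 2747, 751 and 518 scaled reads in S80A libraries 1, 2 and 3, against 12442, 10513 and 7597 in the WT libraries. Every S80A library lay below every WT library, and S80A replicate 1 was the highest of the 3. The means were 1339 ± 1225 scaled reads in S80A cells and 10184 ± 2439 in WT cells (SD, n = 3 each). The difference in mean log2(scaled reads + 1) was -3.29 ± 0.61 log2 (SE), or 9.75-fold lower on that scale. By reads per size factor over the groups it was 7.43-fold lower. The limma adjusted p was 0.0054, with a range of 1.66e-06 to 0.0236 over 17 alternatives, all past the threshold. Without S80A replicate 1 the difference was -4.00 log2.

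IL12B encodes p40, the chain common to IL-12 and IL-23 (GRCh38 chr5:159314783-159330887, minus strand). It had 314, 28.8 and 37.2 scaled reads in S80A libraries 1, 2 and 3 at 3 hr, against 906, 617 and 537 in the WT libraries. The groups did not overlap, but S80A replicate 1 stood at 45.7% of the WT mean while replicates 2 and 3 stood at 4.19% and 5.41%. The means were 127 ± 162 in S80A cells and 687 ± 194 in WT cells (SD, n = 3 each), with an SD above the mean in S80A cells. The difference was -3.24 ± 0.86 log2 (SE; limma adjusted p = 0.021), and -4.31 log2 without S80A replicate 1 (adjusted p = 0.000354). The call was lost when S80A replicate 2 or 3 or any WT replicate was left out, with limma adjusted p-values of 0.0528 to 0.067.

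EBI3 encodes the soluble receptor-like chain of IL-27 (GRCh38 chr19:4229498-4237531, plus strand). At 3 hr it had 9134, 13766 and 14917 scaled reads in S80A libraries 1, 2 and 3, against 6155, 7702 and 8397 in the WT libraries. The lowest S80A library, replicate 1, was above the highest WT library by a small margin. The means were 12606 ± 3061 in S80A cells and 7418 ± 1148 in WT cells (SD, n = 3 each). The difference was 0.75 ± 0.26 log2 (SE; 95% interval 0.12 to 1.37), with a limma adjusted p of 0.053 that missed the threshold. It passed in 7 of 17 alternatives, among them edgeR (adjusted p = 0.0256) and the fit without S80A replicate 1 (0.96 log2, adjusted p = 0.0105), within a range of 0.0105 to 0.159. The fit without S80A replicate 1 is entered again among the 7 and the 17 as the fit without it at both times. EBI3 missed with edgeR and TMM factors (0.57 log2, adjusted p = 0.076) and after centring the libraries (0.53 log2, adjusted p = 0.118). With the replicate number as a block EBI3 passed (limma adjusted p = 0.0366).

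IL6 encodes IL-6, the pyrogenic and acute-phase cytokine (GRCh38 chr7:22725884-22732002, plus strand). It had 333, 285 and 197 scaled reads in S80A libraries 1, 2 and 3 at 3 hr, against 1525, 1733 and 1356 in the WT libraries. Every S80A library was far below every WT library, and the S80A libraries stood at 21.7%, 18.5% and 12.8% of the WT mean, closer together than for IL12B or IL23A. The means were 272 ± 69.2 in S80A cells and 1538 ± 188 in WT cells (SD, n = 3 each). The difference in mean log2(scaled reads + 1) was -2.52 ± 0.26 log2 (SE), or 5.75-fold lower on that scale. Its limma adjusted p was 0.00107, and it passed in all 17 alternatives (range 1.68e-18 to 0.00821).

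LIF encodes leukaemia inhibitory factor, which binds LIFR together with gp130 (GRCh38 chr22:30240447-30246851, minus strand). At 3 hr it had 25.8, 189.8 and 435 scaled reads in S80A libraries 1, 2 and 3, against 21.1, 10.4 and 10.7 in the WT libraries. S80A replicate 1 was just above the highest WT library, while replicates 2 and 3 were at 13.5 and 30.9 times the WT mean. The means were 217 ± 206 in S80A cells and 14.1 ± 6.12 in WT cells (SD, n = 3 each). The difference in mean log2(scaled reads + 1) was 3.19 ± 0.96 log2 (SE), or 9.11-fold higher on that scale, with a limma adjusted p of 0.0323. The ratio of reads per size factor over the groups was 15.4. Without S80A replicate 1 the difference was 4.33 log2 (limma adjusted p = 0.00122). The call was lost when S80A replicate 2 or 3 or any WT replicate was left out, with limma adjusted p-values of 0.0585 to 0.0942. It was also lost with the replicate number as a block (limma adjusted p = 0.0517).

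**Figure D2:**
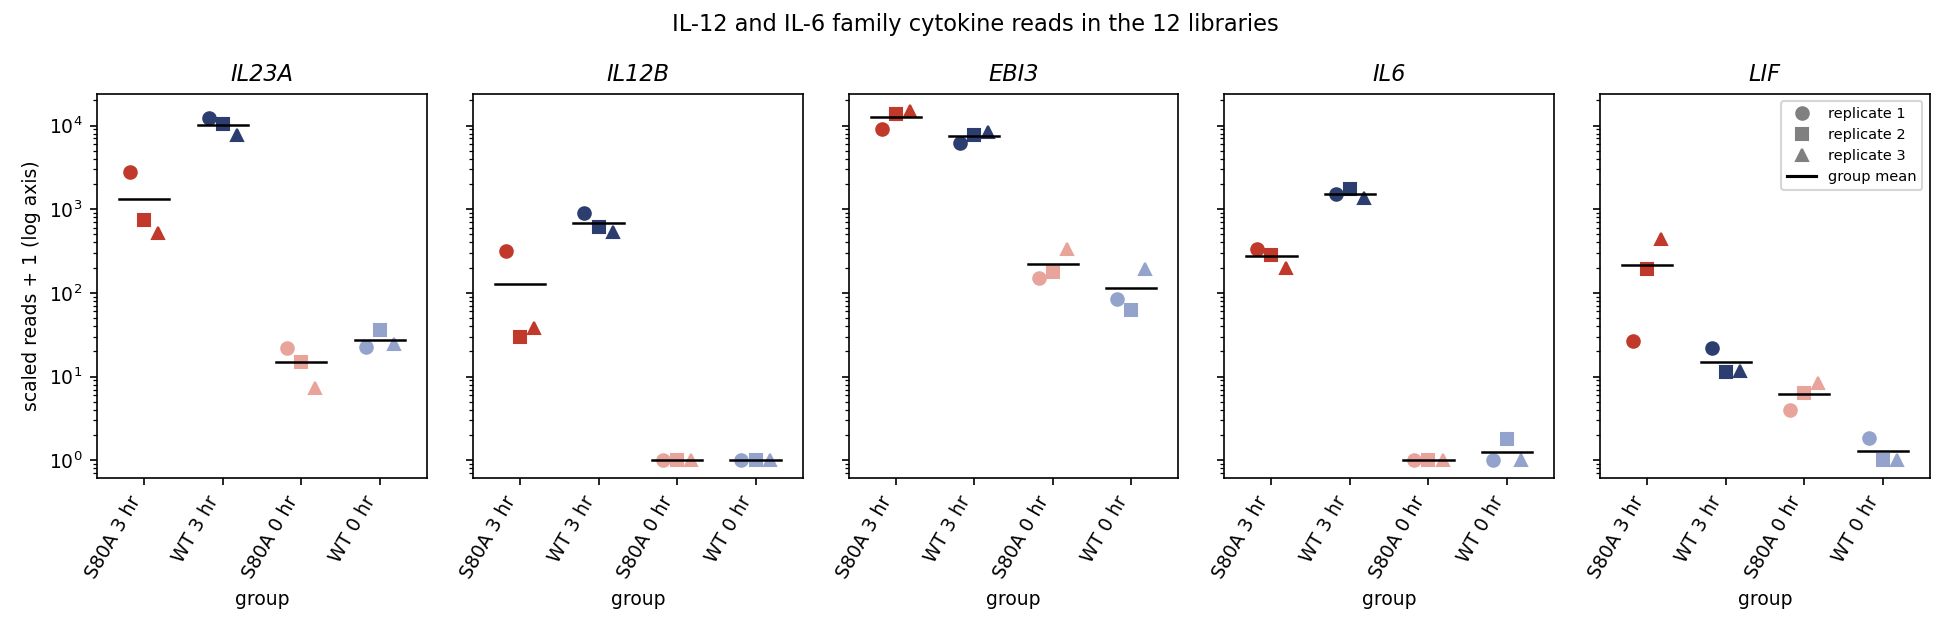
Scaled reads of the 5 cytokine genes in each of the 12 libraries on a log axis of scaled reads + 1, with S80A left of WT within each time; points are libraries and bars are group means. At 3 hr the S80A libraries of IL23A, IL12B and IL6 all lie below the WT libraries, and those of EBI3 and LIF all lie above them.

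IL6, IL12B and LIF have annotated genes on the opposite strand within their span (STEAP1B, AC073072.1, AC008691.1, RNU4ATAC2P, LIF-AS1 and AC004264.1 in GENCODE 29). The library kit was stranded, but the strand setting of the counting is not given in the sources used here, so a part of the reads of these 3 genes could come from the other strand. IL23A and EBI3 had no such neighbour.

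Levels can be set side by side between genes only per length, here as scaled reads per kilobase of annotated exon. In S80A cells at 3 hr EBI3 had the highest level (9818 ± 2384, SD, n = 3), followed by IL23A (1128 ± 1032), IL6 (131 ± 33.5), LIF (54.7 ± 51.9) and IL12B (45.9 ± 58.8). In WT cells at 3 hr IL23A led (8580 ± 2055), followed by EBI3 (5777 ± 894), IL6 (743 ± 91.1), IL12B (249 ± 70.2) and LIF (3.55 ± 1.54). In S80A cells the libraries of LIF overlapped those of IL6 and of IL12B, and in WT cells those of IL23A and EBI3 overlapped. The other neighbours in each order did not overlap.

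For IL23A and IL12B, whose chains pair in IL-23, the ratio of IL23A over IL12B per kilobase was 20.4, 60.8 and 32.4 in the S80A libraries at 3 hr, against 31.96, 39.7 and 32.9 in the WT libraries. The S80A values spread on both sides of the WT values, so the groups overlapped. For EBI3 over IL23A the ratio was 3.07, 16.9 and 26.6 in the S80A libraries, against 0.457, 0.677 and 1.02 in the WT libraries. All S80A values of this ratio were above all WT values.

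**Figure D3:**
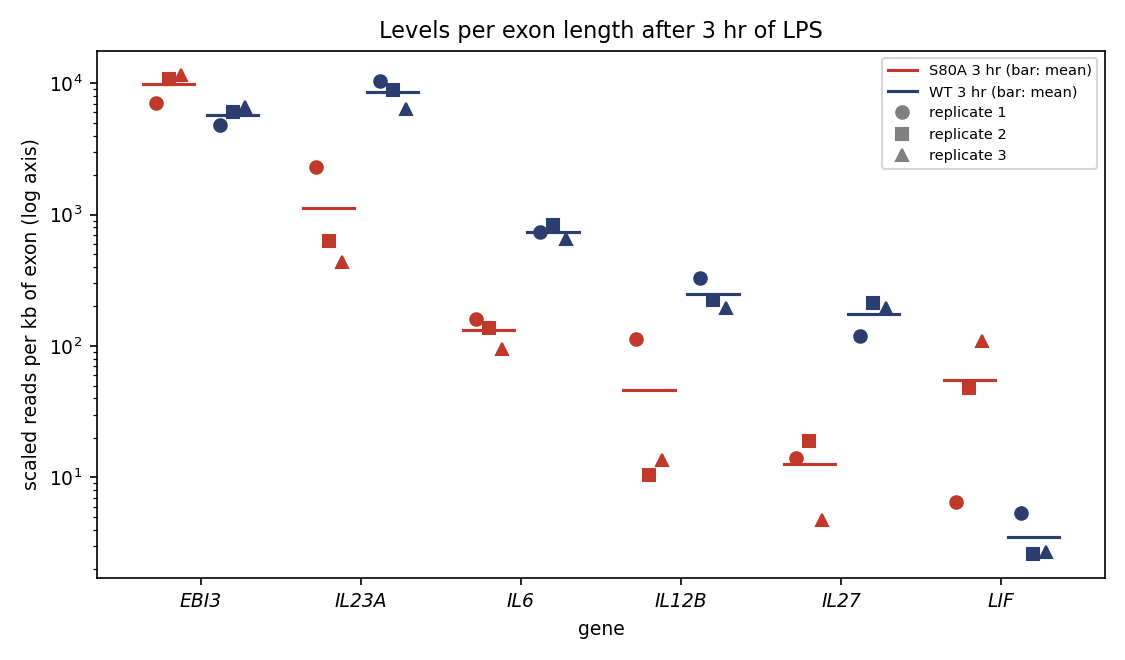
Scaled reads per kilobase of annotated exon at 3 hr, on a log axis, for the listed cytokine genes and IL27, with S80A left of WT; points are libraries and bars are group means. EBI3 leads in S80A cells at 9818 and IL23A leads in WT cells at 8580, and IL27 lies at 12.6 in S80A cells and 176 in WT cells.

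Before LPS the cytokine genes were low or at the floor, and of the 3 tested genes LIF passed between genotypes without the replicate block, and LIF and EBI3 passed with it. The count without the block was 1 of 3, against 30.7% of all listed genes (20.1% in the direction of higher in S80A), and the median difference of the 3 was 1.05 log2, beside 0.19 log2 over all listed genes. LIF had 2.99, 5.43 and 7.35 scaled reads (17 reads in all) in the S80A libraries and 0.866, 0 and 0 (1 read) in the WT libraries at 0 hr. The groups did not overlap, which held for 49.1% of all listed genes (31.6% with S80A higher), and the ratio of reads per size factor was 19.1 with a 95% counting interval of 2.99 to 796. The limma difference for LIF was 2.28 ± 0.38 log2 (SE, adjusted p = 0.0118), and without S80A replicate 2 it was 2.23 log2 (adjusted p = 0.0505). Counting intervals and floors here cover counting error only.

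IL23A at 0 hr had 20.9, 14.0 and 6.30 scaled reads in the S80A libraries, against 21.7, 34.6 and 23.4 in the WT libraries. The groups did not overlap but nearly touched at S80A replicate 1, and the difference of -1.01 ± 0.45 log2 (SE) did not pass the limma test (adjusted p = 0.141). EBI3 at 0 hr had 151, 176 and 334 scaled reads in the S80A libraries, against 84.0, 61.1 and 194 in the WT libraries. These groups overlapped, since WT replicate 3 was above S80A replicates 1 and 2, and the difference of 1.05 ± 0.53 log2 (SE) missed the threshold (limma adjusted p = 0.184). EBI3 was higher in S80A within each numbered pair, and with the replicate number as a block, which paired the libraries at 0 hr, it passed (limma adjusted p = 0.042), as did LIF (0.0457). IL12B had no read in any of the 6 libraries at 0 hr, and IL6 had none in the S80A libraries and 1 in the WT libraries, at or under the floor of 3 reads over a group, so neither was compared.

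All 5 genes rose with LPS in both genotypes in the authors' deposited tables, of which 60.4% (S80A) and 61.7% (WT) of entries rose, and that rise is what put them there. IL6 was at least 296-fold higher at 3 hr than at 0 hr in S80A cells, counted against the floor of 3 reads over the group. In WT cells its ratio was 5603, with a counting interval of 1005 to 221370 around a single read at 0 hr. IL12B was at least 140.1-fold higher in S80A cells and at least 824-fold higher in WT cells. The ratio for IL23A was 98.3 in S80A cells and 379.5 in WT cells. EBI3 had ratios of 58.4 in S80A cells and 65.7 in WT cells, close to each other. LIF had ratios of 40.5 in S80A cells and 50.3 in WT cells, the WT value resting on 1 read at 0 hr (counting interval 8.50 to 2038). The log2 fold changes in the authors' deposited tables for S80A and WT cells were 7.75 and 10.08 for IL6, 4.43 and 6.44 for IL12B, 6.03 and 7.97 for IL23A, 5.59 and 5.77 for EBI3, and 4.67 and 3.26 for LIF. Each lies below the log2 of the ratio given above, so these measures are not alike. For IL12B the minimum ratios are 7.13 log2 in S80A cells and 9.69 log2 in WT cells. For LIF the ratios are 5.34 log2 in S80A cells and 5.65 log2 in WT cells, the opposite order to the authors' values. The cause of the gap was not tested.

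The difference of the LPS response between the genotypes was tested with the limma interaction term, S80A minus WT, over all 12 libraries. It passed for 2 of the 5 genes, both lower in S80A, against 14.1% of all listed genes (6.95% in that direction and 7.19% in the other). With the block within genotype it passed for 3, which adds IL23A. That block raised the count over all 3281 listed genes from 464 to 657. The 5 genes stood in both tables, and of the 1562 genes in both 70 passed when tested alone. In that fit IL6 was the 1 of the 5 that passed (IL12B limma adjusted p = 0.0836). For IL6 the difference was -2.24 ± 0.38 log2 (SE, adjusted p = 0.00481), and for IL12B it was -3.24 ± 0.96 log2 (adjusted p = 0.0462). With IL6 and IL12B at the floor before LPS in both genotypes, these values on the log2(scaled reads + 1) scale depend on that added 1. The IL12B value repeats its difference at 3 hr. The IL6 difference at 3 hr was -2.52 log2. Without WT 0 hr replicate 2, which held the single IL6 read at 0 hr, the IL6 response difference was -2.52 log2 too. The IL6 call held with each of the 12 libraries left out in turn, while the IL12B call held in 6 of 23 alternatives and was lost on leaving out any of 11 of the 12 libraries (limma adjusted p = 0.0622 to 0.0928). Without the other library, S80A replicate 1 at 3 hr, the IL12B difference was -4.31 log2. On the recovered reads IL6 had -0.80 log2 by edgeR (adjusted p = 0.742) and -1.72 by DESeq2 (0.502), and IL12B had -2.43 by edgeR (1.00) and -2.61 by DESeq2 (0.465), so neither tool called either gene.

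IL23A had reads at both times, and its response was -2.27 ± 0.80 log2 (SE) apart, which missed the threshold without a block (limma adjusted p = 0.081). With the 3 hr and 0 hr libraries paired by replicate number within each genotype, a block added after the data were seen, IL23A passed (adjusted p = 0.0142). It passed in 6 of 23 alternatives in all, among them the fit without S80A replicate 1 at 3 hr (-2.98 log2, adjusted p = 0.00667). EBI3 had a difference of -0.30 ± 0.59 log2 (SE, limma adjusted p = 0.743), with a 95% interval of -1.60 to 1.00. LIF had a difference of 0.91 ± 1.13 log2 (SE, limma adjusted p = 0.602), with a 95% interval of -1.57 to 3.39. These intervals are wide, so the responses of EBI3 and LIF are not shown to be alike in the genotypes. Without S80A replicate 1 at 3 hr the LIF difference was 2.05 log2 (adjusted p = 0.0476).

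**Figure D4:**
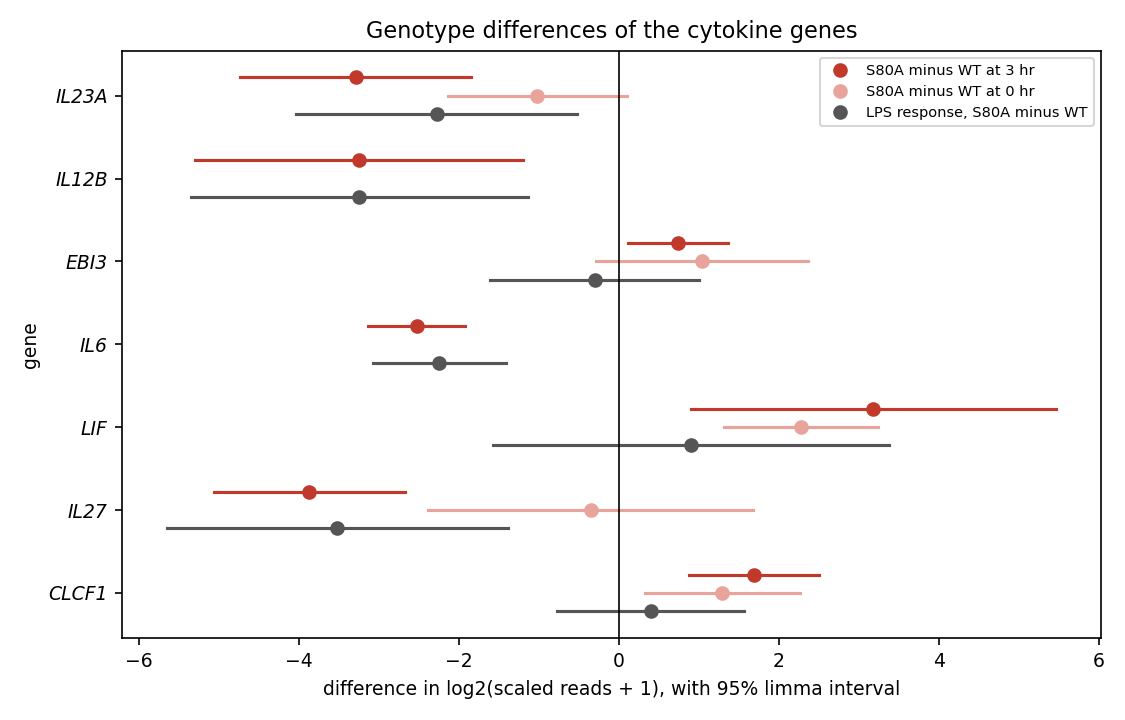
Differences in log2(scaled reads + 1), S80A minus WT, at 3 hr, at 0 hr and for the LPS response, for the cytokine genes, IL27 and CLCF1, with 95% limma intervals; a value left of 0 is lower in S80A. IL23A, IL12B and IL6 lie left of 0 at 3 hr (-3.29, -3.24 and -2.52) and LIF lies right of 0 (3.19); IL12B and IL6 have no point at 0 hr.

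Of 6 other ligands of these families 2 were listed, and they differed in opposite directions at 3 hr. IL27, which encodes the p28 partner of EBI3 (GRCh38 chr16:28499362-28512051, minus strand), had 17.9, 24.2 and 5.99 scaled reads in the S80A libraries at 3 hr. In the WT libraries at 3 hr it had 150.3, 271 and 248. The groups did not overlap, and the difference of -3.86 ± 0.50 log2 (SE) passed the limma test (adjusted p = 0.0019). Its LPS response also differed, by -3.51 ± 0.97 log2 (SE, limma adjusted p = 0.0356, range 0.00109 to 0.0878 over the alternatives), with 10 reads over the S80A libraries and 11 over the WT libraries at 0 hr. The ratio of EBI3 to IL27 per kilobase was 504, 564 and 2461 in the S80A libraries at 3 hr, against 40.5, 28.1 and 33.4 in the WT libraries. The S80A ratios rest on 16, 21 and 5 IL27 reads, so counting error in them is large. Of the chains of IL-27, IL27 was thus lower past the threshold, while EBI3 had the 0.75 log2 difference that missed it. CLCF1, a ligand of the CNTF receptor, was higher in S80A cells at 3 hr by 1.70 ± 0.34 log2 (SE, limma adjusted p = 0.00751), and its response was 0.40 ± 0.53 log2 apart (adjusted p = 0.629).

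Of 10 receptor genes 5 were listed, and 1 of them, OSMR, passed at 3 hr, against 47.0% of all listed genes. OSMR, the oncostatin M chain that pairs with gp130, had 192, 610 and 502 scaled reads in the S80A libraries at 3 hr and 15.3, 43.6 and 25.7 in the WT libraries. At 0 hr OSMR had 141, 496 and 501 scaled reads in the S80A libraries and 2.60, 0 and 3.23 in the WT libraries. Its differences were 3.86 ± 0.54 log2 at 3 hr and 7.05 ± 0.77 log2 at 0 hr (SE, limma adjusted p = 0.0022 and 0.00458), so S80A cells had more OSMR reads before LPS as well. The response of OSMR was -3.19 ± 0.97 log2 apart (limma adjusted p = 0.0492, range 0.00256 to 0.114 over the alternatives), with 7 reads over the WT libraries at 0 hr. IL6R, the IL-6 binding chain, had a response 1.60 ± 0.42 log2 apart (SE, limma adjusted p = 0.0308, range 0.000896 to 0.0745), and at 3 hr its difference of 0.47 ± 0.18 log2 missed the threshold (adjusted p = 0.074). LIFR and IL12RB2 had response differences of -1.31 and -0.65 log2 that did not pass (limma adjusted p = 0.0956 and 0.249). LIFR had 2 reads over the S80A libraries and 0 over the WT libraries at 0 hr, under the floor, so its value depends on the added 1.

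Of 9 JAK and STAT genes 5 were listed, and 0 passed for the response by limma, against 14.1% of all listed genes. Of the 5, 3 had an unadjusted p under 0.05, and the share over all listed genes at that limit is not given here. By edgeR 0 passed with the authors' size factors and 1 with TMM factors, against 409 and 428 of all 3281 listed genes. By DESeq2 3 passed, against 646 of the listed genes. By limma without S80A replicate 1 at 3 hr 1 passed, against 663 of them. At 3 hr 2 of 5 passed by limma, both higher in S80A, against 47.0% of all listed genes. JAK1, a kinase bound to gp130, was higher by 1.36 ± 0.24 log2 and STAT5A by 0.95 ± 0.18 log2 (SE, limma adjusted p = 0.00455 and 0.00656). JAK2 and STAT2 had differences of -0.57 and -0.59 log2 at 3 hr that did not pass (limma adjusted p = 0.0955 and 0.176), and their response differences of -0.91 and -0.42 log2 did not pass either (0.0815 and 0.576). Of 11 feedback inhibitors and pathway targets 10 were listed, with 2 higher and 4 lower at 3 hr in S80A (29.2% and 17.7% of all listed genes). MYC, a STAT3 target, had a response 2.34 ± 0.30 log2 apart (SE, limma adjusted p = 0.0014), and PTPN6, the phosphatase SHP-1, one of -1.75 ± 0.33 log2 (adjusted p = 0.00714). MYC was lower in S80A at 0 hr (-1.39 log2, limma adjusted p = 0.00609) and higher at 3 hr (0.95 log2, 0.015). SOCS1, a JAK inhibitor, was lower in S80A at 3 hr with a difference of -0.93 ± 0.26 log2 (SE, limma adjusted p = 0.0243), while its response did not pass (adjusted p = 0.119). JUNB, an AP-1 subunit, had a response difference of -0.60 log2 that did not pass (limma adjusted p = 0.114).

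Among 21 transcriptional regulators of cytokine genes 18 were listed, and at 3 hr 5 were higher and 1 lower in S80A, against 29.2% and 17.7% of all listed genes. IRF4, an interferon regulatory factor, had 129, 357 and 188 scaled reads in the S80A libraries at 3 hr, against 12.9, 14.5 and 22.5 in the WT libraries. The groups did not overlap, with a difference of 3.59 ± 0.41 log2 (SE, limma adjusted p = 0.00148), and the response of IRF4 was 3.67 ± 0.82 log2 apart (adjusted p = 0.0153). IRF4 had 3 reads in each genotype at 0 hr, at the floor, so its response difference lies close to that at 3 hr and depends on the added 1. NFKB2, which encodes the p100 precursor of p52, was the regulator that was lower at 3 hr, with a difference of -0.64 ± 0.21 log2 (SE, limma adjusted p = 0.0421), and its response was -1.30 ± 0.35 log2 apart (adjusted p = 0.0313, and 0.0513 with the block within genotype). IRF8 had a response 2.03 ± 0.54 log2 apart (SE, limma adjusted p = 0.0307) and NFKBIZ, the IκBζ cofactor, one of 1.68 ± 0.52 log2 that missed the threshold (adjusted p = 0.0526) and passed with the block within genotype (0.0279). IRF8 was lower in S80A at 0 hr (-2.38 log2, limma adjusted p = 0.0211) and did not pass at 3 hr (-0.35 log2, 0.201). NFKBIZ did not pass at 0 hr (-1.24 log2, limma adjusted p = 0.0748) or at 3 hr (0.44 log2, 0.244). Of 8 regulators of cytokine mRNA stability 4 were listed, and ZC3H12A, the RNase Regnase-1 that degrades IL6 mRNA, had a response -1.06 ± 0.29 log2 apart (SE, limma adjusted p = 0.0327, and 0.0611 with the block within genotype). ARID5A and ZFP36, a stabiliser and a decay factor of cytokine mRNA, had response differences of -0.57 and 0.46 log2 that did not pass (limma adjusted p = 0.294 and 0.51). ZFP36L1, an mRNA decay factor, was the 1 of these that passed at 3 hr, higher in S80A by 1.77 ± 0.42 log2 (SE, limma adjusted p = 0.0141). Over the alternatives the adjusted p reached 0.187 for SOCS1 and 0.131 for NFKB2 at 3 hr, and 0.0737 for IRF8, 0.077 for NFKB2, 0.0754 for ZC3H12A and 0.183 for IRF4 for the response. The median difference at 3 hr was 0.41 log2 over the listed receptor chains, -0.57 over the JAK and STAT genes, 0.02 over the feedback and target genes, 0.26 over the transcriptional regulators and -0.04 over the mRNA stability regulators, beside 0.19 log2 over all listed genes.

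**Figure D5:**
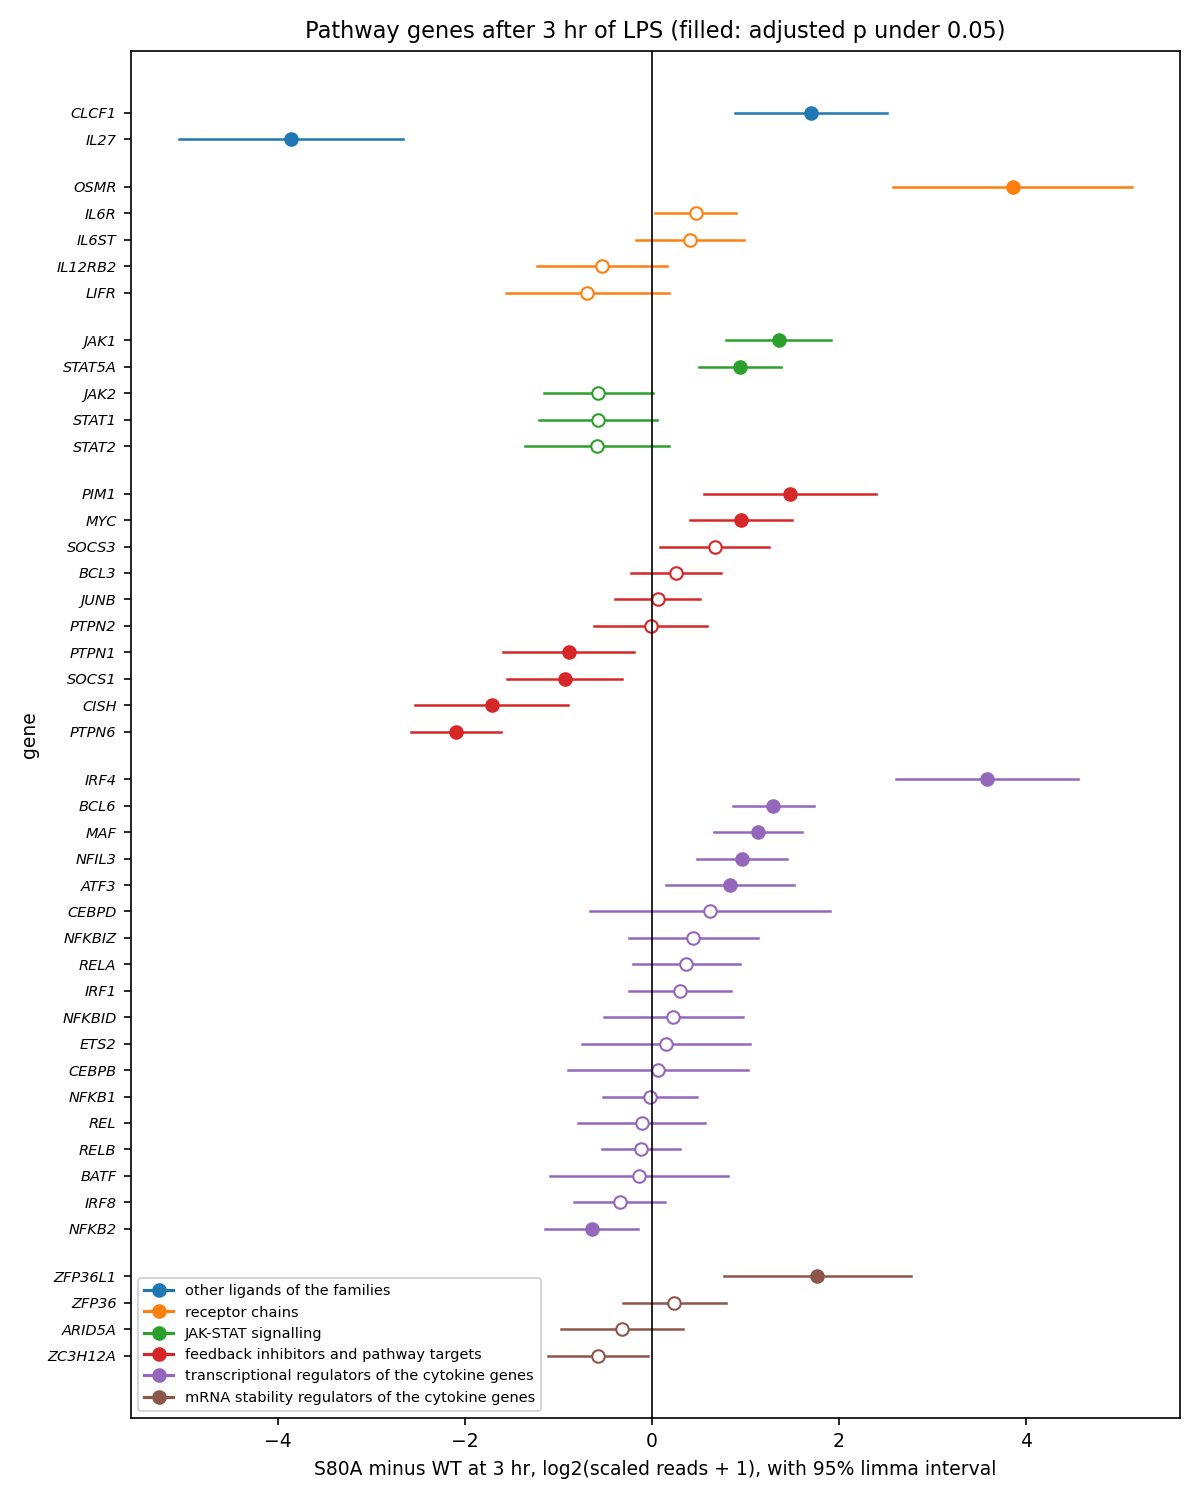
Differences at 3 hr in log2(scaled reads + 1), S80A minus WT, with 95% limma intervals, for the listed ligands, receptor chains, JAK-STAT genes, feedback and target genes, transcriptional regulators and mRNA stability regulators; filled points have an adjusted p under 0.05. IL27 lies farthest left (-3.86) and OSMR farthest right (3.86).

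The genes whose levels were most like each member over the 12 libraries were found by Pearson r on log2(scaled reads + 1), among listed genes with a mean of at least 10. These libraries share the LPS and genotype groups, and r is a description. For IL23A they were MTF1, PTPN1 and SIK3 (r = 0.991, 0.990 and 0.989), and for IL12B they were PTPN1, MTF1 and SIK3 (0.996, 0.996 and 0.989). IL6 was most like CCL8, LINC00158 and SLC2A6 (0.992, 0.991 and 0.990), EBI3 like CCL3, TRAF1 and CYLD (0.992, 0.991 and 0.991) and LIF like IFFO2, AGO2 and DENND3 (0.992, 0.981 and 0.979). IL23A and IL12B thus shared all 3 genes. Among the members themselves r was highest between IL12B and IL23A (0.989) and lowest between IL23A and LIF (0.516). By Spearman's rho 1 of the 3 genes, for EBI3, stayed among the most alike, and 0 of 3 did for each of the other members.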

How the data were processed

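RNA-seq of 12 THP-1 libraries was analysed, in 4 groups of 3. Stranded poly(A) libraries were read single-end over 75 bases, per the labels' protocols. Tools in the submitters' processing notes are HISAT, FastQC, HTSeq, StringTie, DESeq2 and Cuffdiff, without versions, and the build is GRCh38. The signal values deposited by the authors are counts of reads over a library size factor (0.834 to 1.29), since 100% of them were whole multiples to within 0.01 reads. The deposited tables also give the authors' log2 fold change, p-value and adjusted p-value, and hold only genes past 0.01 for the adjusted p and past 1 for the size of the log2 fold change (2508 for S80A, 2335 for WT, 3281 in either).

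Differences were tested with limma 3.58.1 in R 4.3.3 on log2(scaled reads + 1) over all 3281 genes, with Benjamini-Hochberg adjustment and a threshold of 0.05. Each time used its 6 libraries, and the difference of the response used all 12. Alternatives were pseudocounts, filters, centring, edgeR 4.0.16 and DESeq2 1.42.0 on the recovered reads, a replicate block and leaving out each replicate. S80A replicate 1 was also left out at both times. Within a single time this repeats the fit without that library, so tallies of alternatives at 3 hr and at 0 hr hold that fit again. The added 1 shrinks the changes of genes with few reads. At 0 hr the same-numbered S80A and WT libraries deviated together (correlations 0.195, 0.272 and 0.267). The number was therefore taken to pair them there in a fit with a block, given beside the main test, which had no block. The 3 hr and 0 hr libraries of each genotype did so too (0.319, 0.340 and 0.206 in S80A, 0.376, 0.237 and 0.171 in WT), and a block of genotype and number was added for the response after the data were seen. Both pairings come from the data and not from the labels. Positions and exon lengths come from GENCODE 29, and promoters from RefSeq on GRCh38.p14. Named pathway genes are the 4 of each list with the smallest p for the difference of the response, with NFKB1 and the 3 genes most like each member. Members and gene lists were chosen with earlier results of these data known.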

Additional observations from a re-analysis of the deposited data

Results flagged for a closer look

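The LPS response of IL6 differed between S80A and WT cells by -2.24 log2 in the limma interaction test (adjusted p = 0.00481), which marked it for a closer look. IL6 had 0 reads over the S80A libraries and 1 read over the WT libraries at 0 hr.

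The LPS response of IL12B differed by -3.24 log2 in the same test (adjusted p = 0.0462). IL12B had no read in either genotype at 0 hr, and neither edgeR nor DESeq2 called IL6 or IL12B. The IL12B call was lost in 17 of 23 alternatives, among them leaving out any of 11 of the 12 libraries, and the difference was -4.31 log2 without S80A replicate 1 at 3 hr.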

How the results depend on the processing

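At 3 hr IL6 and IL23A passed in all 17 alternatives. The count of members called at 3 hr was 4, and leaving out single replicates gave 2 to 5. At 0 hr it was 1, with 0 under a filter at a mean of 10 that removes LIF, 2 with the replicate block and 0 to 1 with single replicates left out. For the response it was 2, with 1 under a pseudocount of 0.5, centring or the genes in both tables, 0 with edgeR, edgeR with TMM factors or DESeq2 (each with 1 of 5 at an unadjusted p under 0.05, against 3 of 5 in the limma test), and 1 to 4 with single replicates left out. Over all genes the counts were 1541 at 3 hr, 1007 at 0 hr and 464 for the response. Over the 1562 genes in both tables they were 617, 409 and 70, which leaves out genes past the authors' filter in 1 genotype alone. Leaving out single replicates gave 1055 to 1788, 497 to 1200 and 259 to 663 (805 without S80A replicate 1 at both times). With the replicate block they were 1493, 1009 and 620, and with the added block within genotype 657 for the response. The same-numbered libraries had correlations of 0.0138 to 0.376 over 18 pairs, 14 of them best with their own number. The numbers were not taken to pair libraries across all 4 groups for the response, where a block gave IL23A a limma adjusted p of 0.0343. Nor were they taken to pair S80A and WT libraries at 3 hr, although each of those pairs was best with its own number (0.176, 0.229 and 0.0724). A block at 3 hr lost the LIF call (limma adjusted p = 0.0517) and called EBI3 (0.0366), so both results depend on that choice. Within genotype all 6 pairs were over 0.1, though WT replicate 3 was not best with its own number. The block within genotype called 3 members (IL6, IL12B and IL23A). Centring moved the higher calls to 777 of 1527 at 3 hr (959 of 1541 without) and 522 of 966 at 0 hr (660 of 1007), and TMM gave 842 of 1610 and 540 of 1068. The response of EBI3 ranged over -0.77 to 0.050 log2 with single replicates left out and changed sign without S80A 0 hr replicate 3 (0.04) or WT 0 hr replicate 2 (0.050), and that of LIF to -0.20 log2 with DESeq2; the cause was not tested. IL6, IL12B, LIF, LIFR and IRF4 had too few reads at 0 hr for a firm response difference, and that of OSMR rests on 7 WT reads at 0 hr.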

Other observations

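At 3 hr the S80A libraries spread more, relative to their mean, than the WT libraries for each of the 5 cytokine genes. The coefficient of variation was 128% in S80A cells and 28.2% in WT cells for IL12B, 91.5% and 24.0% for IL23A, and 94.99% and 43.5% for LIF. It was 25.5% in S80A cells and 12.3% in WT cells for IL6, and 24.3% and 15.5% for EBI3. Genes outside the cytokines did so too, such as NFKB1 (19.9% in S80A cells and 3.06% in WT cells) and PTPN1 (40.1% and 2.50%). Others went the other way, such as CLCF1 (8.14% in S80A cells and 49.6% in WT cells) and IL6R (0.919% and 9.48%). The share over all listed genes was not counted, so the spread is not shown to be particular to the cytokine genes. With 3 libraries a group these are descriptions, and the difference in spread was not tested.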
